A study of Mus musculus with 18 samples.

Results

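The liver makes most of the proteins that clot blood and dissolve clots, and 34 of their genes were followed here across 4 groups of mouse livers, out of 54532 genes in each of the 2 tables of the series. They were chosen by gene symbol: 4 vitamin K-dependent clotting zymogens (F2, F7, F9, F10), 10 other clotting and contact factors (F3, F5, F8, F11, F12, F13b, Klkb1, Kng1, Kng2, Vwf), 3 fibrinogen chains (Fga, Fgb, Fgg), 8 anticoagulants (Serpinc1, Serpind1, Serpina10, Proc, Pros1, Proz, Thbd, Tfpi), 6 fibrinolysis genes (Plg, Plat, Plau, Serpinf2, Cpb2, Hrg) and 3 vitamin K enzymes (Ggcx, Vkorc1, Vkorc1l1). Each symbol was found once in each table.

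Liver RNA came from male wild-type C57BL/6J mice that were 4 wk old when diets started. Ctrl mice (n = 5) ate a control diet and B2D mice (n = 5) a diet that lacked 99% of its riboflavin (vitamin B2), both for 1 month. Ctrl+FF (n = 4) and B2D+FF mice (n = 4) ate the same diets for 9 wk. They received fenofibrate, an agonist of the nuclear receptor PPARα, by daily gavage in weeks 7 to 9. The dose was 300 mg/kg, the last given 2 hr before harvest. Every mouse was fasted overnight, and each gave 1 library with 15320729 to 21898502 reads on genes. The tables without and with fenofibrate were normalized separately, and no gavage is described for the Ctrl and B2D mice. Fenofibrate, gavage, age, time on diet and table therefore cannot be told apart, and diets were tested only within a table. The hepatocyte markers (9 of 10 listed genes in the tables) summed to between 30981 and 60235 FPKM in every library, against 46.2 to 91.9 FPKM for 12 endothelial markers and at most 2.43 FPKM for 6 platelet markers.

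Clotting runs as a chain of proteases, each cut and activated by the one before, until thrombin turns fibrinogen into fibrin. Contact factors (factor XII, prekallikrein, kininogen and factor XI) and tissue factor are separate ways in, antithrombin and the protein C and protein Z systems hold the chain back, and plasmin dissolves the clot. Several of these proteins work only after the enzyme Ggcx has carboxylated them with reduced vitamin K, which Vkorc1 recycles. Hepatocytes make most of the soluble factors, while factor VIII, von Willebrand factor and thrombomodulin come largely from endothelium.

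Several of the genes lie side by side (coordinates on GRCm38). F7 (chr8:13026034-13035809, + strand), F10 (chr8:13037308-13056676, + strand) and Proz (chr8:13060914-13076026, + strand) follow each other with gaps of 1498 and 4237 bases. F11 (chr8:45241174-45262031, − strand) and Klkb1 (chr8:45266689-45294859, − strand), both coding for contact proteases, are 4657 bases apart. Fgg (chr3:83007724-83015049, + strand), Fga (chr3:83026076-83033627, + strand) and Fgb (chr3:83040141-83049863, − strand) form the fibrinogen cluster, and Hrg, Kng2 and Kng1 lie together on chromosome 16. No other protein-coding gene of the tables lay between these neighbours.

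RefSeq promoters (GRCm38.p6, 250 bases before the start of the transcript to 50 after it) were at hand for 26 of the 34 genes. Thbd, Vwf, Plau, Plg, Kng1, Proc, Plat and Serpina10 had none in the table used. The 5 shown belong to the contact pair F11 and Klkb1, to Proz and to the fibrinogen genes Fga and Fgb, whose levels are described in detail in the next paragraphs. They are written 5′ to 3′ on the gene's own strand, and capitals mark matches, on either strand, to 3 of the motifs searched: TTGCNNAA (a loose C/EBP motif), TTCNNNGAA (STAT) and GTTAAT (an HNF1 core).
F11, chr8:45261982-45262281, − strand: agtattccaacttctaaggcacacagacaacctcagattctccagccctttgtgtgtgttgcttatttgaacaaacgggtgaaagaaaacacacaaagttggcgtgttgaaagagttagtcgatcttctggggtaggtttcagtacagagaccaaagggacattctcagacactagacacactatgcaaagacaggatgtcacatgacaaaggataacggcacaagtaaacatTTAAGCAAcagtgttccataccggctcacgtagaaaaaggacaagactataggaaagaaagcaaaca
Klkb1, chr8:45294786-45295085, − strand: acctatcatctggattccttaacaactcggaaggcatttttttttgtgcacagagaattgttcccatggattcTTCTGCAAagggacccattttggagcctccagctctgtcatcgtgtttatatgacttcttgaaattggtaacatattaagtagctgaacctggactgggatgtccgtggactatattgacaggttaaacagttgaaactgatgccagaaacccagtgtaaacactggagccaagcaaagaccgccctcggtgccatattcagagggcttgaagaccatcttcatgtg
Proz, chr8:13060658-13060957, + strand: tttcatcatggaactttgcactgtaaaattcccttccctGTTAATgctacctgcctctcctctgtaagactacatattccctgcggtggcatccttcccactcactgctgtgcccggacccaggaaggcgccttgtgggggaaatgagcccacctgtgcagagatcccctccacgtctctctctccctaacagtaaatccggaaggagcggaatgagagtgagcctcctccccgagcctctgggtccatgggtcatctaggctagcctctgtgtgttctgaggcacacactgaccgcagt
Fga, chr3:83025903-83026202, + strand: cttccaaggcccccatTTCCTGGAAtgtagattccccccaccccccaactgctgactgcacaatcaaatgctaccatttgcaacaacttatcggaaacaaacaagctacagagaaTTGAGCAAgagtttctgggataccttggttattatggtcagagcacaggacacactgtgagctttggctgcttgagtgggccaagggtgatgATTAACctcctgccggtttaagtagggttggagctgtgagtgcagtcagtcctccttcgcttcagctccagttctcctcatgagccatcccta
Fgb, chr3:83049814-83050113, − strand: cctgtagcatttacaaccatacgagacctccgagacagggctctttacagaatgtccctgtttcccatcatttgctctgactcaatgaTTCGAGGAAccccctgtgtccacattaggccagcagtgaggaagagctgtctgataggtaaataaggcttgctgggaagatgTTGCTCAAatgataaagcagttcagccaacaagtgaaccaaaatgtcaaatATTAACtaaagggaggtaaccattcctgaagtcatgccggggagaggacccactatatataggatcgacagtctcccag

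Fga and Fgb each held all 3 kinds of match. The first base of the C/EBP match lay at −135 in Fga and −80 in Fgb, that of the STAT match at −234 and −162, and that of the HNF1 match at −43 and −29, counted from the start with −1 just before it. F11 held a C/EBP match at −17, Klkb1 a C/EBP match at −177 and Proz an HNF1 match at −211. TTGCNNAA occurred in promoters of 10 of the 26 genes (38.5%), against 10.8% of all 32851 promoters in the table. TTCNNNGAA occurred in 4 of 26 (15.4%, against 8.30%) and GTTAAT in 5 of 26 (19.2%, against 7.10%). Both the HNF4 motif CAAAGTCCA (0.475% of all promoters) and the full C/EBP motif TTGCGCAA (0.183%), which is contained in TTGCNNAA, occurred in 0 of 26. A match is a description of letters in this window and not a bound site.

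The levels spanned more than 4 orders of magnitude. Values are FPKM (reads per kilobase of gene, scaled by the authors for library size), which allow levels to be compared between genes. Fibrinogen chains led in Ctrl livers, with 945 ± 133 FPKM (SD, n = 5) for Fgg, 864 ± 107 for Fga and 731 ± 85.7 for Fgb, whose ranges overlapped. Kng1, the kininogen that carries the contact factors (617 ± 80.6), Hrg, a plasminogen-binding glycoprotein (497 ± 23.5), Plg, the precursor of plasmin (428 ± 29.4), and F2, prothrombin (350 ± 41.9), came next. Kng1 and Kng2 are close copies, so reads can be shared between them and their separate levels are uncertain. At the low end were Tfpi, the inhibitor of the tissue factor pathway (0.918 ± 0.220), Plau, urokinase (0.357 ± 0.180), Vwf, the platelet-binding factor (0.226 ± 0.0865), and Plat, tissue plasminogen activator (0.0497 ± 0.0261, or 2 to 9 reads).

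**Figure D1:**
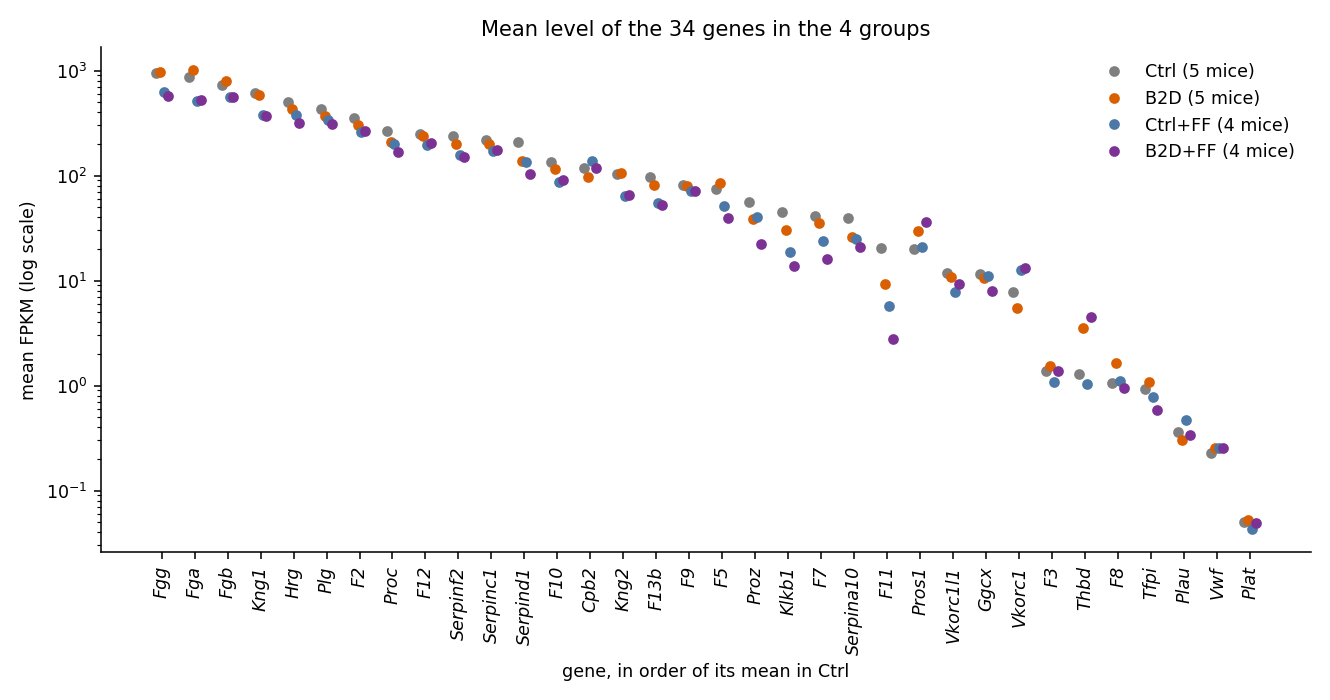
Mean FPKM of the 34 genes (vertical axis, log scale) in order of their level in Ctrl, with a point for each of the 4 groups. The fibrinogen chains lead, Plat is lowest, and the 4 points of F11 are spread from 20.5 down to 2.78 FPKM.

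Diets were compared within each table by limma, with a variance trend, on log2(FPKM + 1). A gene was tested if it averaged 0.5 FPKM or more over the libraries of the fit, which 31 of the 34 genes did in both tables. Plat, Plau and Vwf did not. Every tested gene of the 31 averaged at least 0.581 FPKM in each group, so none was tested only through the group in which it was high. A gene was called where its p, adjusted by Benjamini-Hochberg over every gene tested, was under 0.05. Log2 fold changes are those of FPKM + 1 throughout, a scale that shrinks the changes of weakly expressed genes.

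Riboflavin deficiency without fenofibrate was accompanied by less mRNA for the contact protease factor XI and for the anticoagulant Serpina10, and by more for thrombomodulin. With 1 mouse left out, F11 was called in 10 of 10 fits, Thbd in 3 and Serpina10 in 2. Of 31 genes tested, 2 (6.45%) were called lower in B2D, F11 and Serpina10, against 1.94% of all 11574 genes, and 1 (3.23%) was called higher, Thbd, against 0.769%. The diets did not overlap for 4 genes, of which F11 and Serpind1 were lower in all B2D mice (2 of 31, against 2.89% of all genes) and F8 and Thbd higher (2 of 31, against 2.08%). The median log2 fold change of the 31 was −0.13, with 21 below 0, beside −0.0013 for all genes tested. Of those 11574 genes, 5806 were below 0. Among genes averaging at least 50 FPKM the medians were −0.17 for the 18 coagulation genes and −0.11 for all 849 genes of that level. Of these, 0 of the 18 and 49 of the 849 were called lower.

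Under fenofibrate, deficiency went with lower Klkb1, Proz and Ggcx and again with higher Thbd. With 1 mouse left out, Proz was called in 7 of 8 fits, Thbd in 4, Klkb1 in 1 and Ggcx in 0. Of the 31 genes, 3 (9.68%) were called lower in B2D+FF, against 2.21% of all 11878, and 1 (3.23%) higher, against 2.24%. All B2D+FF mice were below all Ctrl+FF mice for 6 genes (19.4%), F11, Klkb1, Serpind1, Proc, Proz and Ggcx, against 6.44% of all genes. They were above for 2 (6.45%), Thbd and Vkorc1l1, against 7.82%. The median of the 31 was −0.061, with 18 below 0, beside 0.013 for all genes. Of those 11878 genes, 5609 were below 0. Among genes averaging at least 50 FPKM, 0 of 17 coagulation genes and 40 of all 979 were called lower.

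In both tables the diets stood apart in the same direction for 3 of 31 genes (9.68%), F11 and Serpind1 lower and Thbd higher, against 1.43% of the 11031 genes tested in both. Thbd was the 1 gene called in both, where 0.698% of all genes were. The diet effect did not differ detectably between the tables for any of the 31 genes: 0 were called by limma on the difference of the 2 effects (0.228% of 11862 genes were), and 0 by limma voom on read numbers recovered from the FPKM. Without adjustment, 3 of 31 had p under 0.05 for this difference, F8, F5 and Vkorc1l1, as did 11.9% of all genes.

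**Figure D2:**
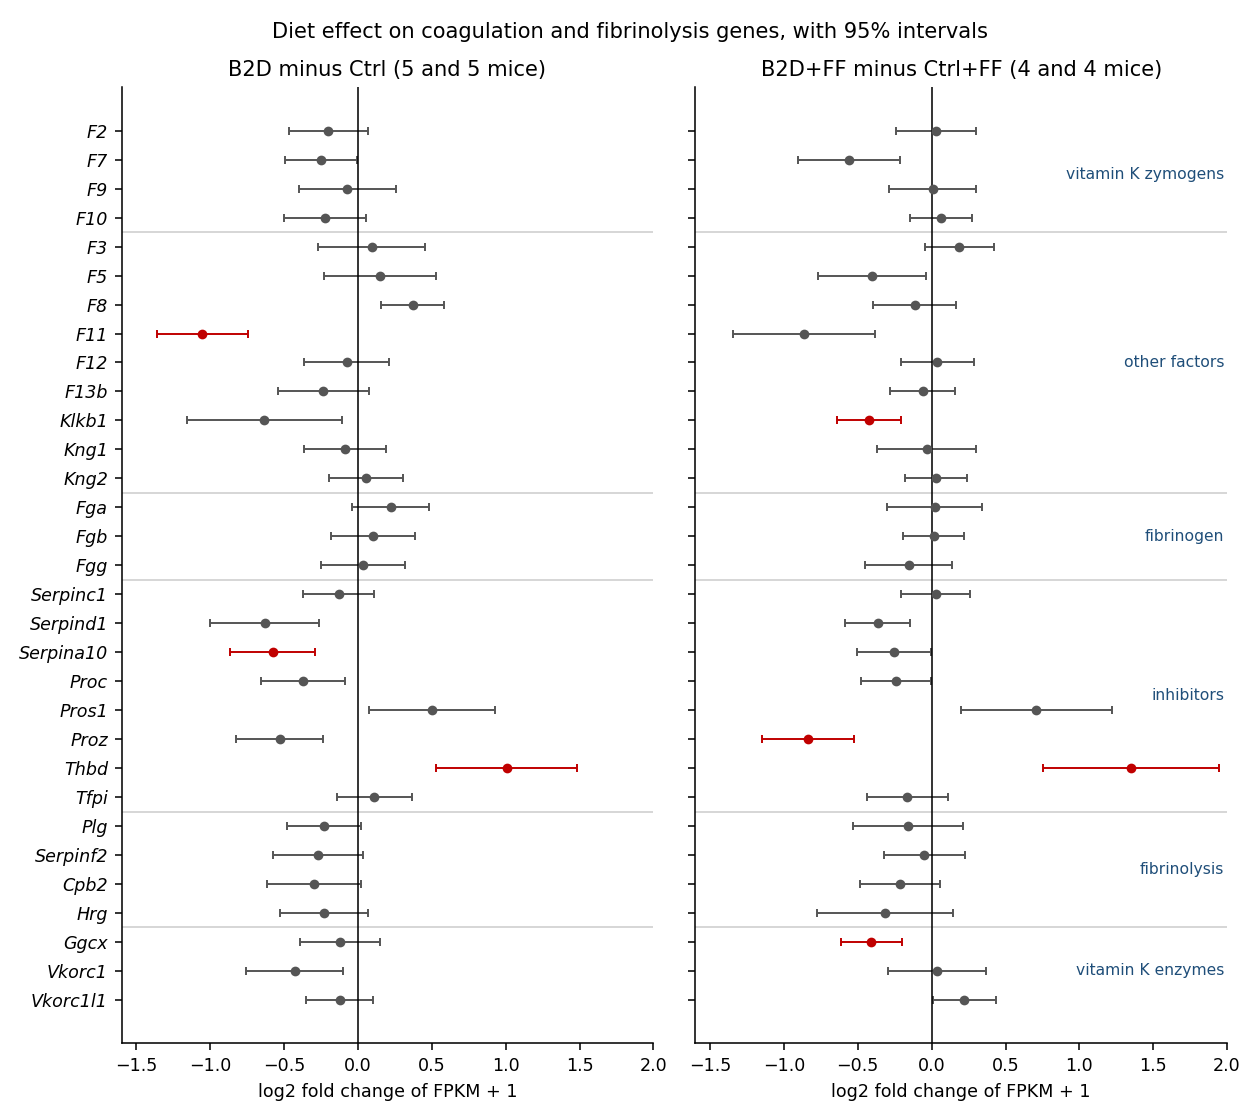
Log2 fold change of FPKM + 1 (horizontal axis) with its 95% interval for the 31 tested genes, grouped by role, without fenofibrate on the left and with it on the right. Red marks adjusted p under 0.05, which F11, Serpina10 and Thbd passed on the left and Klkb1, Proz, Thbd and Ggcx on the right. The intervals of the fibrinogen chains include 0 in both panels.

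F11, the zymogen of factor XI, showed the clearest change. Its FPKM was 21.1, 25.3, 15.7, 20.8 and 19.6 in the 5 Ctrl mice and 8.32, 7.24, 9.74, 9.96 and 11.5 in the 5 B2D mice. The groups were far apart, with the highest B2D mouse below the lowest Ctrl mouse. The mean fell from 20.5 ± 3.43 to 9.35 ± 1.63 (SD, n = 5), or by a log2 fold change of −1.05 (SE 0.14, 95% interval −1.36 to −0.75, limma adjusted p = 0.0048), and the call held without any 1 mouse (adjusted p from 0.0029 to 0.021). With fenofibrate the values were 6.99, 4.10, 6.37 and 5.56 in Ctrl+FF and 1.62, 3.49, 3.88 and 2.13 in B2D+FF. The groups did not overlap here either, and the ratio of means was 0.484 against 0.456 without fenofibrate. The log2 fold change of −0.86 (SE 0.21, limma adjusted p = 0.055, or 0.035 without B2D+FF mouse 3) missed the threshold, though it passed with upper-quartile rescaling (adjusted p = 0.0496), voom on recovered reads (0.028) and all 4 groups in 1 fit (0.018). Those were 3 of 7 alternatives of processing, with limma adjusted p up to 0.14 in the rest. Leaving out 1 mouse, it passed in 1 of 8 fits (limma adjusted p up to 0.14). The difference from the change without fenofibrate was 0.19 (95% interval −0.35 to 0.74). F11 rested on 277 to 984 reads without and 62 to 257 reads with fenofibrate.

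Set side by side, the 4 groups of F11 did not overlap at all, in the order Ctrl, B2D, Ctrl+FF, B2D+FF. This was true of 1 of 31 coagulation genes and of 10 of all 11862 genes (0.0843%), a property looked for after the values had been seen. Some margins were narrow. The lowest B2D mouse stood at 7.24 FPKM and the highest Ctrl+FF mouse at 6.99, in tables that were normalized separately. The lowest Ctrl+FF mouse stood at 4.10 and the highest B2D+FF mouse at 3.88.

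Klkb1, which codes for prekallikrein, the partner of factor XII in contact activation, is the neighbour of F11. It stood at 44.2, 44.3, 33.7, 50.9 and 52.4 FPKM in Ctrl and at 33.3, 15.4, 41.7, 22.2 and 38.0 in B2D. The B2D mice were spread widely, 2 of them within the Ctrl range, and the log2 fold change of −0.63 (SE 0.24, limma adjusted p = 0.19) was not called. Under fenofibrate the values were 20.1, 17.5, 18.5 and 18.1 in Ctrl+FF and 13.03, 11.8, 15.3 and 14.4 in B2D+FF. These groups were tight and separate, and Klkb1 was called lower (log2 fold change −0.42, SE 0.10, limma adjusted p = 0.040). The call held without B2D+FF mouse 3 but not without any 1 of the other 7 mice (adjusted p from 0.064 to 0.12). It was also lost without a filter on low values (limma adjusted p = 0.068) and with all 4 groups in 1 fit (0.36). The ratio of F11 to Klkb1 within a mouse was 0.459 ± 0.0751 in Ctrl, 0.341 ± 0.111 in B2D, 0.308 ± 0.0527 in Ctrl+FF and 0.206 ± 0.0825 in B2D+FF, and the diets overlapped in this ratio in both tables.

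None of the other contact genes was called in either table (limma adjusted p from 0.75 to 0.92). F12, which starts contact activation, had log2 fold changes of −0.077 (95% interval −0.36 to 0.21) and 0.039 (−0.21 to 0.29) without and with fenofibrate. Kng1 had −0.087 (−0.37 to 0.19) and −0.033 (−0.37 to 0.30), and Kng2 0.055 (−0.19 to 0.30) and 0.029 (−0.18 to 0.24).

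Among the remaining factors, F8, the cofactor of factor IX, was apart between the diets without fenofibrate. It stood at 1.14, 1.02, 1.09, 0.799 and 1.21 FPKM in Ctrl and at 1.31, 1.64, 1.58, 2.09 and 1.67 in B2D (157 to 401 reads), every B2D mouse higher. Its log2 fold change of 0.37 (SE 0.099, limma adjusted p = 0.073) missed the threshold. With fenofibrate F8 stood at 1.11, 1.21, 1.26 and 0.840 in Ctrl+FF and at 0.605, 0.824, 1.31 and 1.09 in B2D+FF, overlapping (log2 fold change −0.11, limma adjusted p = 0.65). The difference between these changes was −0.48 (95% interval −0.81 to −0.16, limma adjusted p = 0.21). F8 overlaps Fundc2 on the opposite strand (2.91 FPKM in Ctrl, 2.45 in B2D), and whether counting used strand is not given in the sources used here.

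F5, the cofactor of factor X, had log2 fold changes of 0.15 and −0.40 (limma adjusted p = 0.68 and 0.19). F3, tissue factor, was low in all livers (37 to 103 reads) and not called, and neither was F13b, the carrier subunit of factor XIII (log2 fold change −0.23 and −0.061).

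**Figure D3:**
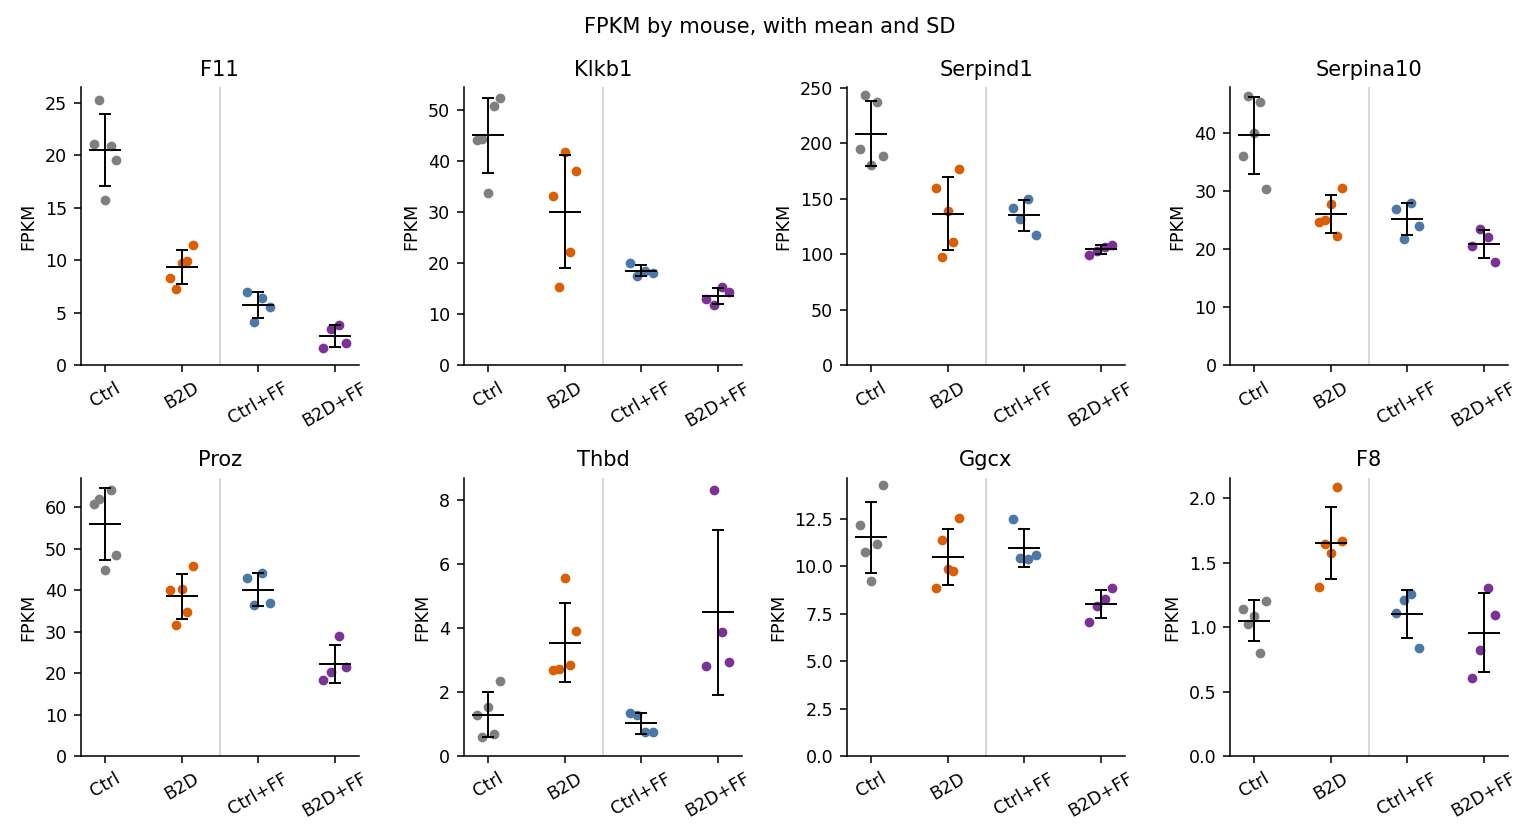
FPKM (vertical axis, from 0) of 8 genes in each mouse, 5 mice in Ctrl and B2D and 4 in Ctrl+FF and B2D+FF, with the mean as a bar and the SD as whiskers, and a grey line between the separately normalized tables. F11 steps down over 4 separate groups, Thbd is higher under deficiency in both tables, and F8 is higher in B2D than in Ctrl while its fenofibrate groups overlap.

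The 4 vitamin K-dependent zymogens were not called in either table. Without fenofibrate F2, F7, F9 and F10 all had log2 fold changes below 0, from −0.25 to −0.071. So did 5806 of all 11574 genes tested, and 566 of the 849 that averaged at least 50 FPKM. With fenofibrate F2, F9 and F10 lay between 0.0063 and 0.065, while F7, factor VII of the tissue factor pathway, stood at 27.6, 20.3, 25.3 and 21.6 FPKM in Ctrl+FF and at 13.1, 14.4, 21.2 and 15.1 in B2D+FF. Only the B2D+FF mouse at 21.2 reached the Ctrl+FF range. The log2 fold change of F7 was −0.56 (SE 0.15, limma adjusted p = 0.076), and it was called by voom on the recovered reads, by the fit of all 4 groups and without B2D+FF mouse 3 (adjusted p = 0.021). In all, F7 was called in 3 of 8 alternatives of processing and in 1 of 8 fits without 1 mouse. Limma adjusted p reached 0.16 and 0.18 in these.

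Of the neighbours F7, F10 and Proz on chromosome 8, Proz was called under fenofibrate. F10, factor X, stood at 91.5, 84.8, 87.0 and 85.2 FPKM in Ctrl+FF and at 93.7, 79.1, 94.3 and 98.9 in B2D+FF, with a log2 fold change of 0.065 (95% interval −0.15 to 0.28). Proz, which codes for protein Z, the cofactor with which Serpina10 inhibits activated factor X, stood at 43.0, 36.4, 44.0 and 37.0 in Ctrl+FF and at 18.3, 20.3, 28.9 and 21.5 in B2D+FF. All B2D+FF mice were below all Ctrl+FF mice. The log2 fold change of Proz was −0.84 (SE 0.14, 95% interval −1.15 to −0.52, limma adjusted p = 0.014), and the call was lost only without Ctrl+FF mouse 1 (adjusted p = 0.054) among the alternatives tried. The ratio of Proz to F10 within a mouse was 0.429 to 0.506 in Ctrl+FF and 0.196 to 0.306 in B2D+FF. Without fenofibrate this ratio overlapped between the diets, at 0.353 to 0.453 in Ctrl and 0.292 to 0.369 in B2D.

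Without fenofibrate Proz stood at 60.8, 61.9, 44.9, 64.1 and 48.6 FPKM in Ctrl and at 40.1, 31.7, 40.3, 34.7 and 45.8 in B2D. A single B2D mouse reached the Ctrl range. The log2 fold change was −0.53 (SE 0.14, limma adjusted p = 0.063, or 0.039 without Ctrl mouse 3), not called, and it did not differ detectably from that under fenofibrate (difference −0.31, 95% interval −0.73 to 0.11). Leaving out 1 mouse, Proz was called in 1 of 10 fits without fenofibrate (limma adjusted p up to 0.17).

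**Figure D4:**
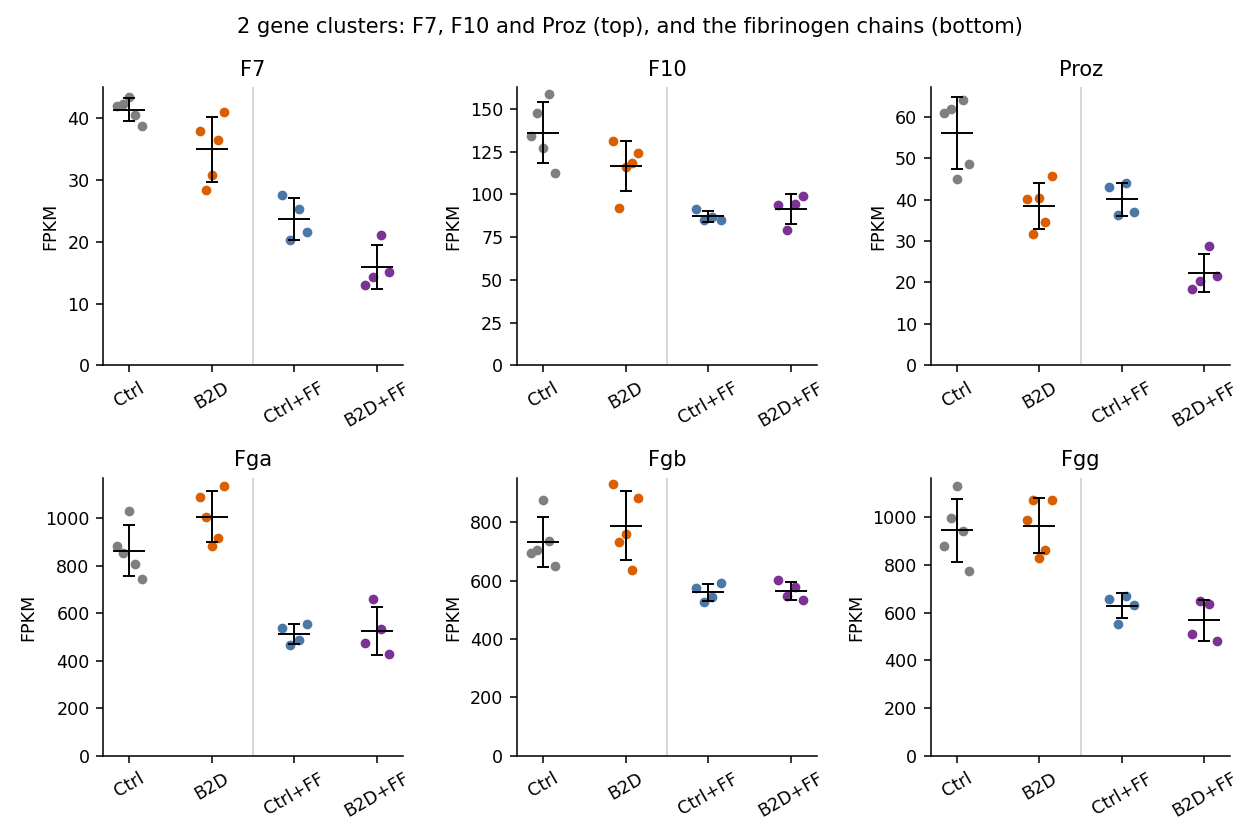
FPKM (vertical axis, from 0) by mouse for the neighbours F7, F10 and Proz in the upper row and for the fibrinogen chains in the lower row, with the mean and SD of 5 or 4 mice. In B2D+FF, F7 and Proz average 15.9 and 22.2 FPKM against 23.7 and 40.1 in Ctrl+FF, but only Proz is separate between these groups. F7, F10 and the fibrinogen chains overlap between the diets in both tables, and Proz overlaps without fenofibrate.

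No change with diet was detected in fibrinogen, the substrate of thrombin and an acute-phase protein. The 3 chains summed to 2540 ± 314 FPKM (SD) in the 5 Ctrl mice and 2757 ± 305 in the 5 B2D mice, and to 1701 ± 109 in Ctrl+FF and 1658 ± 180 in B2D+FF (n = 4). Log2 fold changes without fenofibrate were 0.22 for Fga (95% interval −0.043 to 0.48), 0.10 for Fgb (−0.19 to 0.39) and 0.033 for Fgg (−0.25 to 0.32). With fenofibrate they were 0.021 (−0.30 to 0.34), 0.013 (−0.19 to 0.22) and −0.15 (−0.45 to 0.14). The ratio of Fga to Fgb stood apart between the tables on the control diet but overlapped on the deficient diet. Fga was 1.10 to 1.27 times Fgb in Ctrl and 1.16 to 1.44 times in B2D, but 0.887 to 0.940 times in Ctrl+FF and 0.788 to 1.21 times in B2D+FF, so that every Ctrl+FF mouse was below every Ctrl mouse in this ratio, while the diets overlapped in both tables. Fgg lay between 0.847 and 1.46 times Fgb over the 18 mice. Of 12 acute-phase genes listed, Apcs (log2 fold change 0.63) and Lcn2 (0.83) were called higher in B2D, and Saa1 (−1.58), Saa2 (−1.81) and Saa3 (−0.79) lower in B2D+FF (limma adjusted p from 0.010 to 0.048). Over all genes tested, 2.70% were called without fenofibrate and 4.45% with it.

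Of the 8 anticoagulants, 1 was called lower and 1 higher in each table, with Thbd the higher gene in both. Of all genes tested, 1.94% were called lower and 0.769% higher without fenofibrate, and 2.21% and 2.24% with it. Serpina10, the protein Z-dependent inhibitor of activated factor X, stood at 36.0, 46.3, 39.9, 45.2 and 30.3 FPKM in Ctrl and at 24.5, 25.0, 27.8, 22.2 and 30.5 in B2D. It was lower in 4 of 5 B2D mice than in any Ctrl mouse, the 5th B2D mouse matching the lowest Ctrl mouse. The log2 fold change was −0.58 (SE 0.13, limma adjusted p = 0.040). The call held without Ctrl mouse 5 or B2D mouse 5 but not without any 1 of the other 8 mice (adjusted p from 0.058 to 0.12). It was also lost with quantile normalization (0.071) and without a filter on low values (0.10). With fenofibrate Serpina10 stood at 26.9, 21.8, 27.8 and 24.0 in Ctrl+FF and at 20.5, 23.3, 22.0 and 17.7 in B2D+FF. These overlapped, with a log2 fold change of −0.26 (SE 0.11, limma adjusted p = 0.23).

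Serpind1, heparin cofactor II, which inhibits thrombin, was separate between the diets in both tables without passing the threshold in either. It stood at 195, 243, 181, 237 and 188 FPKM in Ctrl and at 159, 97.3, 139, 111 and 177 in B2D (log2 fold change −0.63, SE 0.17, limma adjusted p = 0.074, or 0.045 without B2D mouse 5). With fenofibrate it stood at 142, 132, 150 and 118 in Ctrl+FF and at 99.7, 103, 107 and 109 in B2D+FF (log2 fold change −0.36, SE 0.098, limma adjusted p = 0.068). Leaving out 1 mouse, it passed in 1 of 10 fits without and 0 of 8 with fenofibrate (limma adjusted p up to 0.19 and 0.18). Serpind1 overlaps Pi4ka on the opposite strand, whose own log2 fold changes were 0.48 and 0.37 (limma adjusted p = 0.093 and 0.12).

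In the protein C system the zymogen and its cofactor had changes of opposite sign, neither of them called. Proc, the zymogen of protein C, stood at 299, 266, 241, 301 and 228 FPKM in Ctrl and at 265, 184, 189, 195 and 201 in B2D (log2 fold change −0.37, SE 0.13, limma adjusted p = 0.16). With fenofibrate it stood at 204, 198, 198 and 198 in Ctrl+FF and at 180, 141, 188 and 169 in B2D+FF, separate but not called (log2 fold change −0.24, SE 0.10, limma adjusted p = 0.22). Pros1, protein S, its cofactor, had log2 fold changes of 0.50 and 0.71 (limma adjusted p = 0.20 and 0.11), the second called without B2D+FF mouse 2 (adjusted p = 0.018). That was 1 of 8 fits without 1 mouse, with limma adjusted p up to 0.26. In B2D, Pros1 ranged from 20.3 to 42.2 FPKM, against 16.2 to 25.2 in Ctrl.

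Thbd, thrombomodulin, the receptor through which thrombin activates protein C, rose in both tables. It stood at 1.27, 0.587, 1.54, 0.690 and 2.32 FPKM in Ctrl and at 2.67, 2.72, 5.55, 2.84 and 3.89 in B2D (38 to 181 and 173 to 363 reads). Every B2D mouse was higher than every Ctrl mouse, though the highest Ctrl mouse came close. The mean was 2.76 times that of Ctrl, with a log2 fold change of 1.01 (SE 0.22, 95% interval 0.53 to 1.48, limma adjusted p = 0.035). With fenofibrate Thbd stood at 1.34, 1.27, 0.742 and 0.745 in Ctrl+FF and at 2.82, 8.29, 3.87 and 2.94 in B2D+FF. The groups were well apart, and the mean was 4.37 times that of Ctrl+FF (log2 fold change 1.35, SE 0.26, limma adjusted p = 0.025). The call without fenofibrate was lost without any 1 of Ctrl mice 1, 2 and 4 and B2D mice 2 to 5 (adjusted p from 0.051 to 0.096), and that with fenofibrate without any 1 Ctrl+FF mouse (0.056 to 0.070), with log2 fold changes of at least 0.86 throughout. Both calls were lost without a filter on low values (limma adjusted p = 0.12 and 0.077).

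Thbd is known mainly as an endothelial gene. Of 12 endothelial markers, 9 had log2 fold changes above 0 in B2D (median 0.22, 0 called by limma) and 3 in B2D+FF (median −0.14, with Lyve1 called higher at 0.77, limma adjusted p = 0.029). Their summed level was 59.1 to 89.4 FPKM in Ctrl, 77.0 to 91.9 in B2D, 55.2 to 65.0 in Ctrl+FF and 46.2 to 72.0 in B2D+FF, and none was at 0 throughout a group. The diets overlapped in this sum in both tables, and the part of endothelial content in the level of Thbd was not tested. In bulk liver, fewer cells of a type and less RNA per cell cannot be told apart. Platelet markers were near 0 in all groups (summed 0.607 to 2.43 FPKM, with Gp1bb at 0 in every library).

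The last 2 anticoagulants, Serpinc1 (antithrombin) and Tfpi, were not called. Serpinc1 had log2 fold changes of −0.13 (95% interval −0.37 to 0.11) and 0.028 (−0.21 to 0.26), and Tfpi 0.11 (−0.14 to 0.37) and −0.17 (−0.44 to 0.11).

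No fibrinolysis gene was called in either table. All 4 that were tested had log2 fold changes below 0 in both. Among all genes averaging at least 50 FPKM, as these 4 did, 566 of 849 were below 0 without fenofibrate and 391 of 979 with it. Plg, Serpinf2 (antiplasmin), Cpb2 (a carboxypeptidase that slows fibrinolysis) and Hrg lay between −0.30 and −0.23 without fenofibrate (limma adjusted p from 0.31 to 0.39) and between −0.32 and −0.049 with it (0.34 to 0.86). The mean level of Plg, for example, was 428 ± 29.4 FPKM in 5 Ctrl mice and 366 ± 46.9 (SD) in 5 B2D mice. The activators Plat and Plau were under the level tested, with 1 to 12 and 8 to 28 reads a library, and neither was called when the filter on low values was lifted.

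Of the vitamin K enzymes, Ggcx, the carboxylase, was called lower under fenofibrate. It stood at 12.5, 10.4, 10.4 and 10.6 FPKM in Ctrl+FF and at 7.06, 7.90, 8.25 and 8.84 in B2D+FF, every deficient mouse lower (log2 fold change −0.41, SE 0.092, limma adjusted p = 0.041). The call was lost in each of the 8 fits without 1 mouse (adjusted p from 0.057 to 0.12). It was also lost without a filter on low values (limma adjusted p = 0.075) and with all 4 groups in 1 fit (0.071). Without fenofibrate Ggcx stood at 12.2, 10.8, 9.22, 11.2 and 14.3 in Ctrl and at 8.87, 11.4, 9.84, 9.77 and 12.6 in B2D, overlapping (log2 fold change −0.12, limma adjusted p = 0.63).

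Vkorc1, which recycles vitamin K epoxide, had log2 fold changes of −0.43 (95% interval −0.76 to −0.098, limma adjusted p = 0.16) and 0.037 (−0.29 to 0.37) without and with fenofibrate. Its relative Vkorc1l1 stood at 10.7, 11.5, 12.2, 11.7 and 12.6 FPKM in Ctrl and at 9.37, 9.84, 11.2, 13.5 and 10.1 in B2D, overlapping. It stood at 8.01, 7.41, 7.65 and 8.11 in Ctrl+FF and at 8.27, 8.32, 9.80 and 10.8 in B2D+FF, separate but not called (log2 fold change 0.22, SE 0.095, limma adjusted p = 0.22).

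Vitamin K is also reduced and broken down by enzymes that were not among the 34 genes. Nqo1, a flavoprotein quinone reductase, stood at 8.16, 7.24, 8.15 and 7.07 FPKM in Ctrl+FF and at 11.5, 12.8, 10.4 and 13.6 in B2D+FF, and was called higher (log2 fold change 0.59, SE 0.097, limma adjusted p = 0.013). Aifm2, another flavoprotein that reduces vitamin K, named here after its values were seen, did not differ detectably with diet (log2 fold change 0.013 without and 0.035 with fenofibrate). In a list of 51 further genes of clotting, clot dissolution and vitamin K, 36 were tested without fenofibrate and 2 were called, both lower: Serpine2, a thrombin-inhibiting serpin (log2 fold change −0.62), and Cyp4f15 (−0.57). With fenofibrate 34 were tested, of which Nqo1 was called higher and Hgfac, a plasma protease related to factor XII (−0.50), and Cyp4f14 (−1.22) lower. The shares called of all genes tested were 2.70% without and 4.45% with fenofibrate. The Cyp4f genes code for related cytochromes of which some break down vitamin K, and close copies can share reads.

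**Figure D5:**
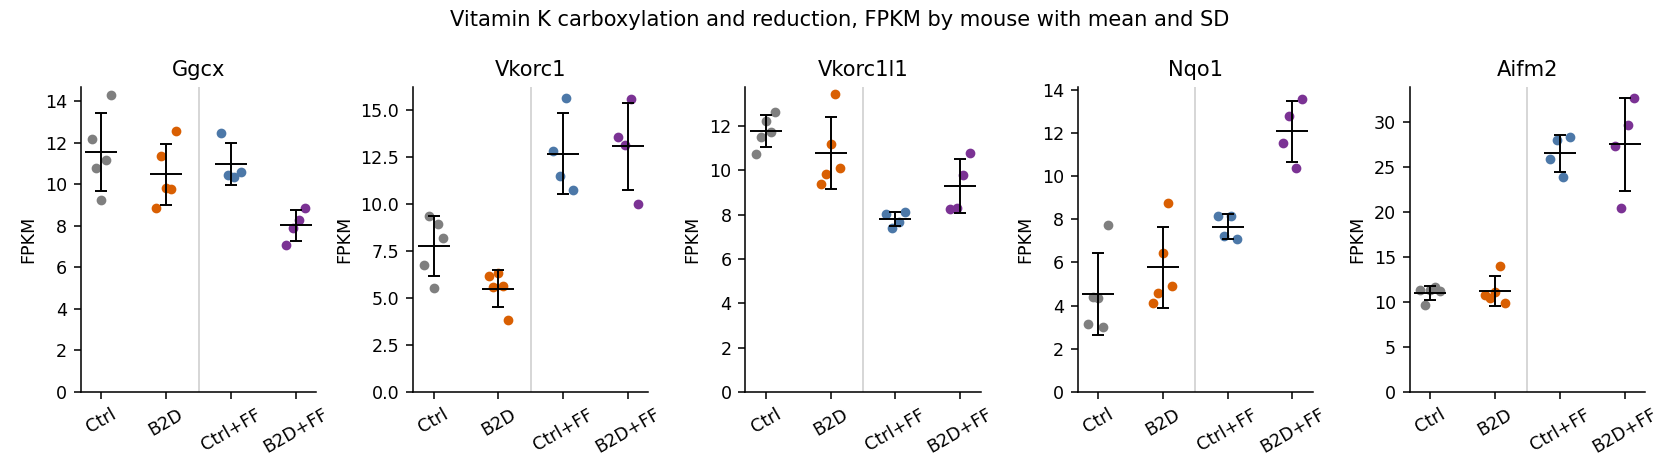
FPKM (vertical axis, from 0) by mouse for the carboxylase Ggcx, the epoxide reductases Vkorc1 and Vkorc1l1 and the flavoprotein reductases Nqo1 and Aifm2, with the mean and SD of 5 or 4 mice. Ggcx is lower and Nqo1 higher in each B2D+FF mouse than in any Ctrl+FF mouse, and Vkorc1 is higher in both fenofibrate groups than in both groups without it.

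Markers of other cells moved in part with the diets. For comparison, 2.70% of all genes tested were called without fenofibrate and 4.45% with it. Of 10 Kupffer cell and macrophage markers, 9 had log2 fold changes below 0 without and 8 with fenofibrate, with C1qa (−0.50) and Clec4f (−0.47) called lower in B2D. All 5 red cell genes were below 0 in both tables, and Alas2, the erythroid enzyme of heme synthesis, was called in both (−1.36 and −1.37). Of 10 stellate cell markers, 10 were tested without and 9 with fenofibrate, and of 6 cholangiocyte markers only 3 and 2. None of these was called by limma, at adjusted p under 0.05. Of the hepatocyte markers, Ass1 (0.75) was called higher and Serpina1a (−0.60) lower in B2D+FF. The part of these cells in the levels of the clotting genes was not tested.

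Of 21 transcription factors that act on liver genes, 0 were called by limma without fenofibrate. The shares called of all genes were 2.70% there and 4.45% with fenofibrate. Under fenofibrate, Onecut1 (log2 fold change −0.90) and Cebpa (−0.57) were called lower and Cebpd (0.55) higher in B2D+FF (limma adjusted p from 0.020 to 0.047). Cebpa, which codes for a C/EBP factor, stood at 101, 98.9, 87.9 and 95.4 FPKM in Ctrl+FF and at 60.2, 77.3, 59.2 and 60.5 in B2D+FF. Whether these factors have a part in the levels of the clotting genes was not tested.

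Most of the 34 genes were lower in the fenofibrate table, whichever the diet. These levels are set side by side with no test, since gavage, age, time on diet and the table differ too. Of 31 genes, 27 had lower means in Ctrl+FF than in Ctrl, and for 22 (71%) every Ctrl+FF mouse was below every Ctrl mouse, against 14.8% of all 11862 genes. For 1 (3.23%), Vkorc1, every mouse was above, against 15.4%. On the deficient diet 27 means were lower, 13 genes (41.9%) were apart downward, against 12.5% of all genes, and 1 upward, again Vkorc1, against 15.5%. The median log2 ratio of the 31 genes was −0.42 between the control diets and −0.38 between the deficient diets, beside −0.036 and −0.037 for all genes.

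Most of the hepatocyte markers were lower in the fenofibrate table too. Of 9 hepatocyte markers, 8 had lower means in Ctrl+FF than in Ctrl and 8 in B2D+FF than in B2D, with median log2 ratios of −0.72 and −0.66. Albumin, Alb, for example, averaged 24777 FPKM in Ctrl and 15530 in Ctrl+FF, and the markers summed to 44915 to 56875 FPKM in Ctrl and 38368 to 41361 in Ctrl+FF. The exception on both diets was Apoa2, at 6924 to 10388 FPKM in Ctrl and 13631 to 14930 in Ctrl+FF. Among all 919 genes averaging at least 50 FPKM the medians were 0.11 and 0.28, and among the 18 coagulation genes of that level −0.48 and −0.39. With the reads of all 18 libraries scaled together, 19 of the 31 genes were apart downward between the control diets, against 12.4% of all genes, and 9 between the deficient diets, against 10.2%, and the medians were −0.38 and −0.33.

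By role, the fibrinogen chains were all lower with fenofibrate, every mouse below, with Fga at 512 ± 41.9 FPKM in Ctrl+FF (n = 4) against 864 ± 107 in Ctrl (n = 5). F11 averaged 0.281 and Klkb1 0.411 of the Ctrl level in Ctrl+FF, the lowest ratios of the 31. Vkorc1 went the other way, from 7.77 ± 1.59 in Ctrl to 12.7 ± 2.14 in Ctrl+FF and from 5.50 ± 0.989 in B2D to 13.1 ± 2.31 in B2D+FF, and Cpb2, Pros1 and F8 also had a higher mean in Ctrl+FF than in Ctrl, with overlapping ranges.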

How the data were processed

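Liver RNA of 18 mice was sequenced from mRNA libraries (NEBNext Ultra RNA kit), 1 library per mouse, in groups given by the sample labels. The authors used STAR for alignment to mm10 and featureCounts for counting, and deposited FPKM values in 2 tables. Tool versions are not given in the sources used here. Multiplied by gene length, the low values of a library were multiples of the worth of 1 read, so the reads behind each value could be recovered, between 15320729 and 21898502 a library. The library sizes these imply were median-of-ratios sizes computed within each table. Genes averaging 0.5 FPKM or more were fitted by limma (version 3.58.1, R 4.3.3, moderated with a variance trend) on log2(FPKM + 1), each table alone, p-values being adjusted by Benjamini-Hochberg over all genes. The contrast between the tables' diet effects used 1 fit of 18 libraries. The fit was tested on simulated data.

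The 34 genes, their roles, the 51 further pathway genes, 21 regulators, marker lists and motifs were chosen with earlier results of these data known. All 34 genes are accounted for: those called, or with separate diets, are given mouse by mouse. Of the other lists, at most 5 genes past the threshold are named. Mice are numbered in sample order. Alternatives tried were no filter on low values or one at 5 FPKM, a pseudocount of 0.1, upper-quartile rescaling, quantile normalization, array weights, voom on recovered reads, all 4 groups in 1 fit, each mouse left out (for the medians between tables, an alternative chosen after seeing the data), and joint scaling of the 18 libraries.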

Additional observations from a re-analysis of the deposited data

Results flagged for a closer look

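In 8 of the 136 sets of values (34 genes in 4 groups) 1 mouse stood apart from its group by Dixon's criterion, where chance alone flags about 1 in 20, or 6.8. In FPKM, B2D mouse 1 was high for F2 (373, the others 272 to 297) and for Proc (265, the others 184 to 201). Ctrl mouse 1 was high for Plau (0.665, the others 0.213 to 0.343) and Ctrl mouse 5 low for Serpinf2 (191, the others 249 to 254). Ctrl+FF mouse 1 was high for Proc (204, the others all 198) and for Ggcx (12.5, the others 10.4 to 10.6), the gene whose call was lost without any 1 mouse. B2D+FF mouse 2 was high for F3 (1.85, the others 1.20 to 1.25) and B2D+FF mouse 3 for Tfpi (0.849, the others 0.477 to 0.505).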

How the results depend on the processing

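The number of coagulation genes called depended on the fit. In B2D against Ctrl, 3 were called as reported, 1 (F11) without a filter on low values, and 6 with array weights, with voom on recovered reads and with all 4 groups in 1 fit, each time F11, F8, Proz, Serpina10, Serpind1 and Thbd. Calls over all genes rose as well, from 2.70% to 3.97%, 3.48% and 6.16%. Without 1 mouse the count was 1 to 3, with F11 always among them, and it was 1 without Ctrl mouse 1, 2 or 4 and B2D mouse 2, 3 or 4. In B2D+FF against Ctrl+FF, 4 were called as reported, 6 with upper-quartile rescaling, array weights and voom (4.45% of all genes as reported, and 4.96%, 7.45% and 6.25%), 1 (Proz) without a filter, and 0 to 5 without 1 mouse (0 without Ctrl+FF mouse 1, where 8 of 31 had an unadjusted limma p under 0.05, beside 17.2% of all genes). Removing the filter raised the genes tested from 11574 to 25041 and from 11878 to 24746. The cause of any of these changes in the number called was not tested. The difference between the diet effects gave 0 calls in every fit. The median log2 fold change stayed below 0, from −0.22 to −0.032 without and from −0.12 to −0.010 with fenofibrate. Of 1816 gene values under alternatives, 43 lost and 26 gained a call, 74 changed sign without a call, and none that was called changed sign. No paired analysis was possible because the mice carry no shared numbers. Plat rests on few reads, and Vwf, a long gene with 25 to 136 reads a library, was left out by the minimum of 0.5 FPKM.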
